A study of Mus musculus with 42 samples.

Results

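Day 5 was compared with day 4 at the start of a course in which mouse embryonic stem cells of the D3 line, derived from a blastocyst, were directed towards osteoblasts. The RNAs were those titled Osteo Day 4 and Osteo Day 5, 3 replicates of each, so 6 of the 21 RNA samples of the series. Every RNA had been run on a pair of Affymetrix chips, MOE430A and MOE430B (here 430A and 430B), so 12 of the 42 arrays are used. Both days are wild-type D3 cells with no allele or reporter named, and the labels estimate the cells to be a pure clone. For every sample the growth protocol lists ascorbic acid, beta-glycerophosphate and vitamin D3, whereas the titles name VD3 only from day 6 on. It is therefore unsettled whether the cultures of days 4 and 5 had already met the supplements, but both days are labelled alike. Cultures left to differentiate without direction were not part of the comparison. Whether the cells grew as embryoid bodies, and whether replicates of a day came from separate cultures, is not in the labels. The p-values therefore cover a spread among samples that may be technical. In fits of all 21 arrays of a chip that spread is pooled over all days of the series, not taken from days 4 and 5 alone. In bulk RNA, fewer cells of a type and less RNA per cell cannot be told apart.

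Pluripotent stem cells that are left to differentiate first take on the state of the post-implantation epiblast, in which Fgf5 and Otx2 come on while the naive genes go down. Cells of the epiblast that receive Nodal, Wnt and BMP signals pass through the primitive streak, marked by Mixl1, Eomes and Mesp1, and leave it as mesoderm or definitive endoderm. The first mesoderm gives rise to the primitive red cells of the yolk sac, which make embryonic globins, and later to the mesenchyme from which bone is made.

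Pluripotency markers were all above background, 5 of 5 tested, with day means between 9.81 and 12.61 on day 4 and between 8.11 and 10.91 on day 5 (log2 signal, as are all levels below). Of the 5 streak markers 3 were tested, namely Mixl1, Eomes and Gsc. The other streak markers, T (Brachyury) and Wnt3, had no probe set tested under those symbols. Of the 5 early mesoderm markers 5 were tested, and of the 5 osteoblast markers only Sp7 and Alpl. The mean of the pan-leukocyte marker Ptprc lay under the chip's 20th percentile, taken here as the background floor (6.96 on 430A and 7.67 on 430B), on both days, whereas the macrophage markers Csf1r (10.23 and 10.29) and Cd68 (9.61 and 9.17) lay above it. The log2 ratio of 3' to 5' signal of the Gapdh control, a measure of RNA shortening, was 2.63 ± 0.37 on day 4 and 2.67 ± 0.34 on day 5 on 430A (SD, n = 3 each; exact permutation test, two-sided, p = 0.9, where 0.1 is the smallest p that 3 against 3 allows). On 430B the Gapdh ratio was 2.7 and 2.73. The actin ratio was lower on day 5, at 2.62 ± 0.54 and 2.21 ± 0.14 on 430A (exact permutation test, p = 0.4). On 430B the actin ratio was 2.48 ± 0.34 and 2.16 ± 0.24 (exact permutation test, p = 0.2). Median signal before log2 was 543 and 530 on 430A (exact permutation test, p = 0.8). On 430B it was 887 and 848, with every day 5 array below every day 4 array (exact permutation test, p = 0.1). Over the 100 probe sets carried by both chips, each of the 6 RNAs correlated best with its own array on the other chip, and 80 of the 100 had the same direction of change on both.

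Both metallothionein genes fell between the days in the fit with replicates paired, described further on, and their promoters are shown for that reason. Metallothioneins are small cysteine-rich proteins that bind zinc and copper, and in mammals the factor MTF1 drives their genes through metal response elements. The lines give the 250 bases before the RefSeq start of each gene on GRCm38.p6, plus strand, Mt1 at chr8:94178839-94179088 and Mt2 at chr8:94172368-94172617. Capitals mark matches to the core of that element, searched as TGCACNC and TGCGCNC on both strands.
Mt1: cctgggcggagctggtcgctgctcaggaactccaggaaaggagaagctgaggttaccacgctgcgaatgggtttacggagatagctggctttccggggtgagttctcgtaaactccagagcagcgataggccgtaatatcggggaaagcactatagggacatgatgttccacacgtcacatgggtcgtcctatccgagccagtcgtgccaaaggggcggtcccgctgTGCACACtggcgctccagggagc
Mt2: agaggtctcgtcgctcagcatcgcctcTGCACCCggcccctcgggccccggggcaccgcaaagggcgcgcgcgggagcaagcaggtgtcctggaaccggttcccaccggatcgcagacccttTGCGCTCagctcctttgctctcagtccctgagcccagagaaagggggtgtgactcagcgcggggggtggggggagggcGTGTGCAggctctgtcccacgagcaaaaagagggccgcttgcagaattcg
The window of Mt1 holds 1 match and that of Mt2 holds 3, one of them on the minus strand. At least 1 match was found in 21.4% of the 32841 promoter windows of the same length, and 2 or more in 5.18%. A single match is therefore common, and nothing on the binding of the factor follows from the matches in either gene.

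The unpaired comparison, in which the 3 arrays of day 5 are set against the 3 of day 4, called 1 probe set on each chip, both higher on day 5. Expression was tested in limma on log2 signal with all 21 arrays of a chip in the fit and Benjamini-Hochberg adjustment within each chip (16705 probe sets tested on 430A, 18260 on 430B), at a threshold of 0.05. The shares called higher were 0.00599% on 430A and 0.00548% on 430B, and the shares called lower were 0% on both. At an unadjusted p under 0.05, limma had 869 higher and 593 lower on 430A, then 689 higher and 447 lower on 430B. The median log2 change was -0.01 on 430A and -0.02 on 430B.

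Itgb3 encodes integrin beta 3, the chain that pairs with integrin alpha v in receptors for vitronectin and osteopontin. Its signal was 7.45, 6.76 and 7.33 in replicates 1 to 3 on day 4 and 11.17, 10.73 and 9.55 on day 5 (430B). All 3 values of day 5 lay well above those of day 4, and the rise was at least 7.01-fold (3.30, SE 0.39, limma adjusted p = 3.0e-04). "At least" marks a lower bound throughout, with each value of the lower day that lies under the floor raised to it. Log2 changes were computed on the values as they stand, also where some lie under the floor. Day 5 replicate 1 was the only one of the 6 arrays on 430B scanned in a later batch, and without it the log2 change was 2.96 (adjusted p = 0.00803). Itgb3 did not pass in an unpaired limma fit of the 6 arrays alone (adjusted p = 0.919). The level stayed high afterwards, at 11.64 ± 0.28 on day 6 and 12.62 ± 0.60 on day 8 (SD, n = 3). Arrays of day 6 and later were not scanned with those of day 4 on either chip, so scan batch and day cannot be told apart in levels of later days.

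Ptpre, which encodes receptor-type tyrosine phosphatase epsilon, was the call on 430A. Its values were 4.77, 5.00 and 5.24 on day 4, all under the floor, and 9.20, 8.91 and 7.14 on day 5. Again the days did not overlap, and day 5 was at least 2.75-fold higher (3.41, SE 0.49, limma adjusted p = 0.0147). The call was lost on leaving out replicate 2 of day 4 (adjusted p = 0.0607), or replicate 1 or 2 of day 5 (0.147 and 0.0851), and with 64 added to each signal (0.292). It was also lost in an unpaired limma fit of the 6 arrays alone (adjusted p = 0.966). The probe set entered the test through its signal on other days, as it did not meet the signal filter on the arrays of days 4 and 5 alone. The second probe set of the gene differed in the same direction by 1.00 and did not pass (adjusted p = 0.583).

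Same-numbered arrays of the days deviated together on 430A, by the check given with the processing, and not in every pair on 430B. The fit with the replicate number as a block is therefore given for 430A. On 430B genes are described by the unpaired fit, whose p-values ignore the pairing, and by their values or differences in each replicate.

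With that block, limma called 38 probe sets on 430A. Of these 24 were higher on day 5 (0.144% of those tested) and 14 were lower (0.0838%). The higher ones belonged to 23 genes, among them an embryonic globin gene, the mesoderm receptor gene Pdgfra and Col1a1, and the lower ones with a single symbol to 11 genes, among them Nodal, Fgf4 and both metallothioneins. All 38 moved one way in all 3 pairs, but the 3 values of one day lay clear of the other in 18 only (9 higher and 9 lower), since replicates started from different levels. Over all genes tested the days lay clear of each other in 3.31% with day 5 higher and in 5.22% with day 5 lower. The calls rest on few arrays. In a blocked fit of the 6 arrays alone only Hbb-bh1 passed on 430A (adjusted p = 0.0474), with 0.217 to 0.746 for the other 37. Without replicate 2 of both days no probe set was called, without replicate 1 there were 84 and without replicate 3 there were 103.

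Hbb-bh1, the beta-like globin of primitive red cells, had the largest change among the blocked calls. Its called probe set read 8.79, 9.93 and 4.38 on day 4 and 15.86, 14.40 and 9.0 on day 5. All pairs were higher on day 5, with the day 4 value of replicate 3 under the floor, and day 5 was at least 23.0-fold higher (5.38, SE 0.73 in the blocked fit, blocked adjusted p = 0.00639). On the log2 scale the difference was 3.72 without day 4 replicate 3 and 4.00 without day 5 replicate 1, both below the 4.52 of that bound, and 7.43 without day 5 replicate 3. Replicate 3 was lowest on both days, and its day 5 value lay between the day 4 values of the other replicates. The other two probe sets of the gene read 16.07, 14.22 and 8.48, and 14.41, 12.55 and 5.02, on day 5, with replicate 3 only 0.60 above its day 4 value on the first of them, and neither passed (blocked adjusted p = 0.0975 and 0.111). Probe sets of this type may share probes with related globins.

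Pdgfra, the receptor for platelet-derived growth factor A on early mesoderm and mesenchyme, read 11.33, 8.91 and 4.83 on day 4 and 12.34, 12.43 and 10.76 on day 5. The day 4 values were far apart, with that of replicate 3 under the floor. Day 5 was at least 6.85-fold higher (3.49, SE 0.56, blocked adjusted p = 0.012), and without day 4 replicate 3 the unpaired change was 1.72 in place of 3.49. On 430B a separate probe set gave 10.55, 8.90 and 9.59 against 11.81, 11.32 and 11.37, days that did not overlap (1.82, SE 0.42, adjusted p = 0.391 unpaired). The remaining 430A probe set differed by 0.14.

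**Figure D1:**
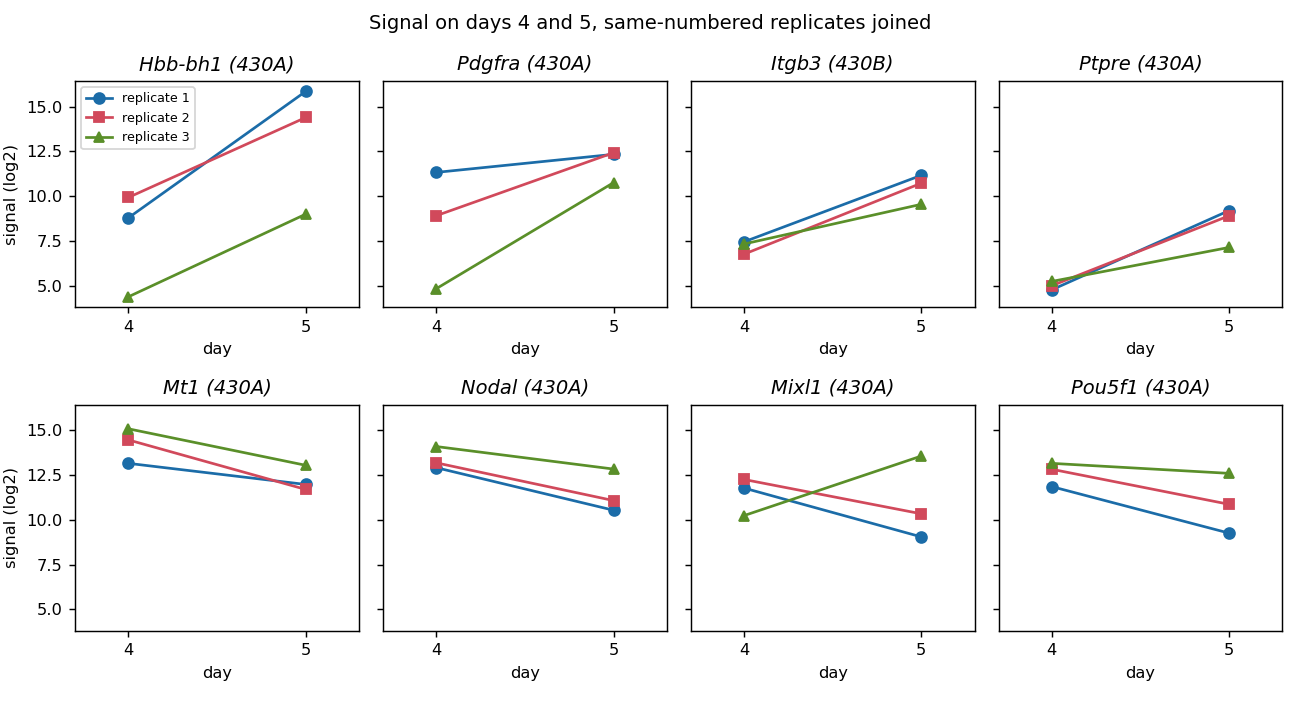
Log2 signal of 8 genes on day 4 and day 5, 1 line for each replicate number; the chip stands beside the gene name. Itgb3 and Ptpre are separated by day in every replicate, Hbb-bh1 and Pdgfra are higher on day 5 within every pair, Mt1, Nodal and Pou5f1 are lower within every pair, and Mixl1 is lower in replicates 1 and 2 and higher in replicate 3.

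The other blocked rises were chosen for mention after their values were seen. Tcf21, a helix-loop-helix factor of visceral and cardiac mesenchyme, read 6.21, 6.14 and 5.34 on day 4 and 9.30, 9.87 and 7.59 on day 5 (at least 3.90-fold, blocked adjusted p = 0.0109). Gpc3, a glypican that tunes growth factor signals, read 13.66, 11.70 and 10.33 and then 14.21, 13.87 and 13.25 (1.88, SE 0.33, 0.0232). Rgs5, a regulator of G protein signalling known from pericytes, differed by 2.21, 2.04 and 2.09 in the pairs. These 3 genes had quite different starting levels. They went the same way in every replicate, as did all 38 blocked calls from which they were taken, so this is no separate evidence. Col1a1, the main collagen chain of bone and connective tissue, read 12.22, 9.61 and 9.09 and then 13.62, 12.61 and 10.28 (1.86, SE 0.37, 0.0462), while its second probe set, under the floor on 4 of 6 arrays, differed by -0.20. The imprinted zinc finger gene Peg3 passed on 2 of its 4 probe sets (at least 4.83-fold and 2.07-fold), and all 4 had a higher mean on day 5. Reln, a secreted glycoprotein, had days that did not overlap, with 9.97, 9.08 and 9.10 against 11.48, 11.37 and 10.04 (2.99-fold, SE 0.31 on the log2 scale, blocked adjusted p = 0.0416). Beside Ptpre, the remaining genes that rose were Cpeb4, Cmtm3, Eid1, Gdpd5, Ets1, Chst15, Zhx1, Slc39a8, Chn2, Hmgb3, Ogt, Tshz1, Fam91a1 and Jdp2, by 2.46-fold to 3.87-fold for those measured above the floor and by at least 1.42-fold to at least 4.82-fold for the others. For Ets1, Jdp2 and Ogt further probe sets of the gene differed the other way. Slc39a8 encodes a cell-surface importer of zinc and manganese, and its pairs differed by 1.29, 2.07 and 1.03.

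Mt1 fell from 13.16, 14.47 and 15.09 on day 4 to 11.98, 11.70 and 13.05 on day 5. All day 5 values lay below all day 4 values, and the fall was 4.00-fold (-2.0, SE 0.28, blocked adjusted p = 0.00639, unpaired adjusted p = 0.119). Mt2 went from 13.51, 14.82 and 15.66 to 12.70, 12.50 and 13.76, a 3.20-fold fall (-1.68, SE 0.29, blocked adjusted p = 0.016). In both genes replicate 3 had the highest level on either day. Mt1 stayed low on day 6 (11.62 ± 0.18) and day 8 (11.44 ± 0.36) and was at 13.59 ± 0.23 on day 16 (SD, n = 3). Its second probe set, between 7.38 and 8.65 on the 6 arrays, differed by -0.31. The small heat shock protein gene Hspb1 also fell, with 11.17, 13.05 and 12.37 against 10.10, 10.77 and 11.66 (-1.35, SE 0.27, 0.0465), while its second and brighter probe set did not pass (-1.23, blocked adjusted p = 0.0872).

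Nodal, the ligand that maintains the epiblast and induces the streak, fell from 12.92, 13.19 and 14.10 to 10.54, 11.08 and 12.84. The days did not overlap, the pairs differed by -2.38, -2.11 and -1.26, and the fall was 3.77-fold (-1.92, SE 0.34, blocked adjusted p = 0.0235, unpaired 0.358). A second Nodal probe set differed by -0.55 and did not pass. The mean on day 6 was 11.57 ± 0.37 (SD, n = 3). Fgf4, which pluripotent cells secrete, fell on 1 of its 3 probe sets from 9.92, 10.45 and 9.95 to 7.89, 9.89 and 7.35 (-1.73, SE 0.35, 0.0461), and its day 6 mean was 9.94. The other Fgf4 probe sets were lower in every pair too and did not pass. The other lower calls with a symbol were Crip1, a LIM protein, Chst11, a chondroitin sulfotransferase, Vsir, an immune checkpoint receptor, Angptl4, an inhibitor of lipoprotein lipase, Ldhb, a subunit of lactate dehydrogenase, and Chchd10, a mitochondrial protein. Their falls were 2.32-fold to 3.76-fold for Crip1, Ldhb and Chchd10 and at least 2.65-fold to at least 4.74-fold for the others. Vsir and Chst11 each have a second probe set that differed the other way (0.29 and 0.22). The other probe sets that fell had no single symbol.

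**Figure D2:**
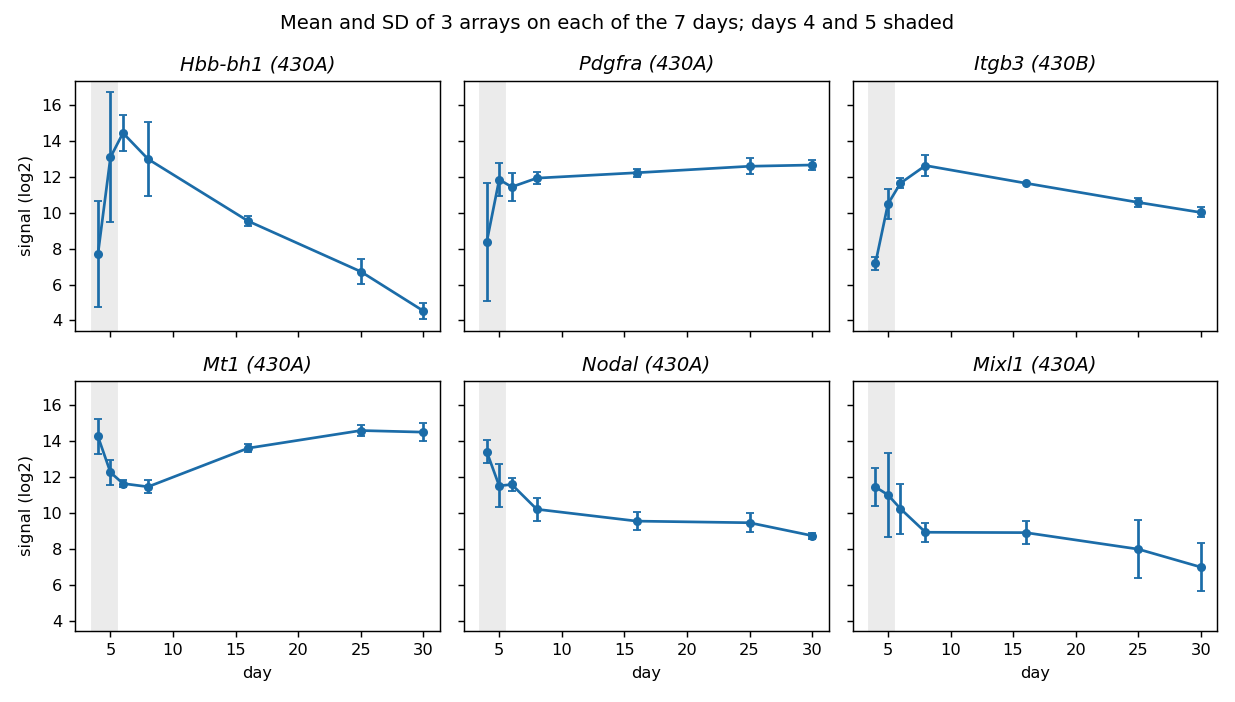
Mean log2 signal and SD of 3 arrays on each of the 7 days for 6 genes, with days 4 and 5 shaded. Hbb-bh1 peaks on day 6 (14.43) and is at 4.53 on day 30, Itgb3 goes on up to day 8 (12.62), Pdgfra stays above 11 from day 5 on, Mt1 dips between days 5 and 8, and Nodal and Mixl1 are at 8.72 and 6.97 on day 30.

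Genes of pluripotency were mostly lower on day 5, but none passed the unpaired test. Among 18 general pluripotency genes tested 0 were higher and 10 lower in all 3 pairs, with a median log2 change of -0.74, and among 15 naive genes 2 were higher and 5 lower, with a median of -0.79 and pair medians of -0.98, -0.66 and 0.01 in replicates 1 to 3. Over all 15600 genes tested, 12.5% were higher and 16.1% lower in all 3 pairs, and the median was -0.02. Pou5f1, the central pluripotency factor, read 11.86, 12.83 and 13.16 on day 4 and 9.26, 10.87 and 12.60 on day 5 (-1.71, SE 0.92, unpaired adjusted p = 0.609). The difference was 2.60 in replicate 1 but 0.56 in replicate 3, and the days overlapped. Nanog, which stabilises the pluripotent state, went from 9.42, 10.77 and 10.65 to 5.18, 8.44 and 10.70 (-2.18, SE 1.36, 0.662). Its replicate 3 did not differ while replicates 1 and 2 were lower, and the 5.18 of replicate 1 lay under the floor. Zfp42, a marker of the naive state, read 8.40, 9.10 and 11.94 and then 7.10, 9.27 and 10.35. Utf1, a chromatin factor of pluripotent cells, read 10.27, 13.41 and 13.17 and then 7.87, 11.01 and 11.86 on 430A (-2.04, 0.545). The factor gene Sox2 differed by -1.06 and the Polycomb gene Phc1 by -0.75, both lower in all 3 pairs. Of the naive list the smallest unadjusted p values belonged to Klf5 (-1.35, adjusted p = 0.491), Esrrb (-0.84), Dppa5a (-2.08) and Klf2 (-0.79). Zscan10 on 430B, a factor that binds with Pou5f1 and Sox2, was the 1 general pluripotency gene whose days did not overlap, with 14.29, 15.53 and 14.57 against 13.16, 13.98 and 14.05 (-1.07, SE 0.32, 0.48).

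Post-implantation epiblast genes went the same way. Of 16 tested, 8 were lower and 0 higher in all 3 pairs, the median was -0.54, and Nodal was the 1 blocked call. Otx2, a homeobox factor of the epiblast and anterior neural plate, read 11.99, 12.61 and 13.22 and then 9.53, 10.52 and 11.64 (-2.05, adjusted p = 0.56). Its days did not overlap, which held for 5.22% of all genes in this direction and for 3.31% in the other. Fgf5, the classical epiblast ligand, read 13.07, 12.99 and 14.14 and then 10.17, 11.90 and 13.42 on 430B (-1.57, SE 0.93, 0.859). The methyltransferase gene Dnmt3b differed by -0.95 and the POU factor gene Pou3f1 was lower in every pair, with a day 5 replicate 1 value of 5.03 under the floor. Within this list replicate 3 differed least, with a median pair difference of -0.33 against -0.91 in replicate 1 and -0.67 in replicate 2.

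In the Nodal and Activin pathway, 22 genes were tested, 2 were higher and 6 lower in all 3 pairs, and the median was -0.08. Those lower in all pairs were Nodal, Tdgf1, Lefty1, Lefty2, Gdf3 and Skil. Tdgf1, the co-receptor of Nodal, read 12.63, 12.46 and 14.01 and then 9.05, 10.30 and 13.52 (-2.08, adjusted p = 0.619). Lefty1 and Lefty2, secreted inhibitors that Nodal itself induces, differed by -1.12 and -1.42, and Gdf3, a related ligand, by -1.15. Skil, an inhibitor of Smad proteins that the pathway induces, read 12.58, 12.88 and 13.51 and then 11.37, 11.64 and 12.49, days that did not overlap (-1.16, 0.491). Among receptors and Smads the differences were 0.04 for Smad2, -0.06 for Smad3 (0.65 on its brighter 430B probe set), 0.04 for Smad4 and 0.09 for Acvr1b and 0.81 for the Activin receptor gene Acvr2a (0.522). The Activin subunit gene Inhba differed by 1.01 (0.586).

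Primitive streak genes did not share a direction between replicates. The list had 16 genes tested, a median change of -0.08 in day means, and median pair differences of -1.38 in replicate 1, -0.89 in replicate 2 and 2.33 in replicate 3. In 13 of the 16 the value was lower on day 5 in replicates 1 and 2 and higher in replicate 3, a pattern noticed in these data and found in 16.2% of all genes; the reverse pattern was found in 10.9% of all genes and in 0 of the 16. Mixl1, the homeobox factor of streak and endoderm precursors, read 11.78, 12.26 and 10.24 on day 4 and 9.05, 10.34 and 13.57 on day 5. Eomes, the T-box factor that specifies definitive endoderm and cardiac mesoderm, read 13.03, 12.60 and 12.14 and then 10.82, 11.22 and 14.00. On day 4 replicate 3 was the lowest for both genes and on day 5 it was the highest. Mesp1, which marks mesoderm as it leaves the streak, read 11.66, 12.04 and 9.54 and then 9.37, 10.73 and 12.64. Sp5, a direct target of Wnt signals, read 10.21, 10.95 and 8.31 and then 4.31, 7.52 and 11.11, with the 4.31 under the floor. None of these passed (adjusted p = 0.927 for Mixl1, 0.839 for Eomes, 0.967 for Mesp1 and 0.657 for Sp5). Cdx2, a homeobox factor of the posterior streak, was an exception with 9.97, 10.00 and 7.04 against 10.96, 11.44 and 10.50 (1.96, 0.54), and Nkx1-2 (0.55) was the other gene of the list that was higher in every pair. As each pair holds 1 array a day, the difference between replicates was not tested.

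**Figure D3:**
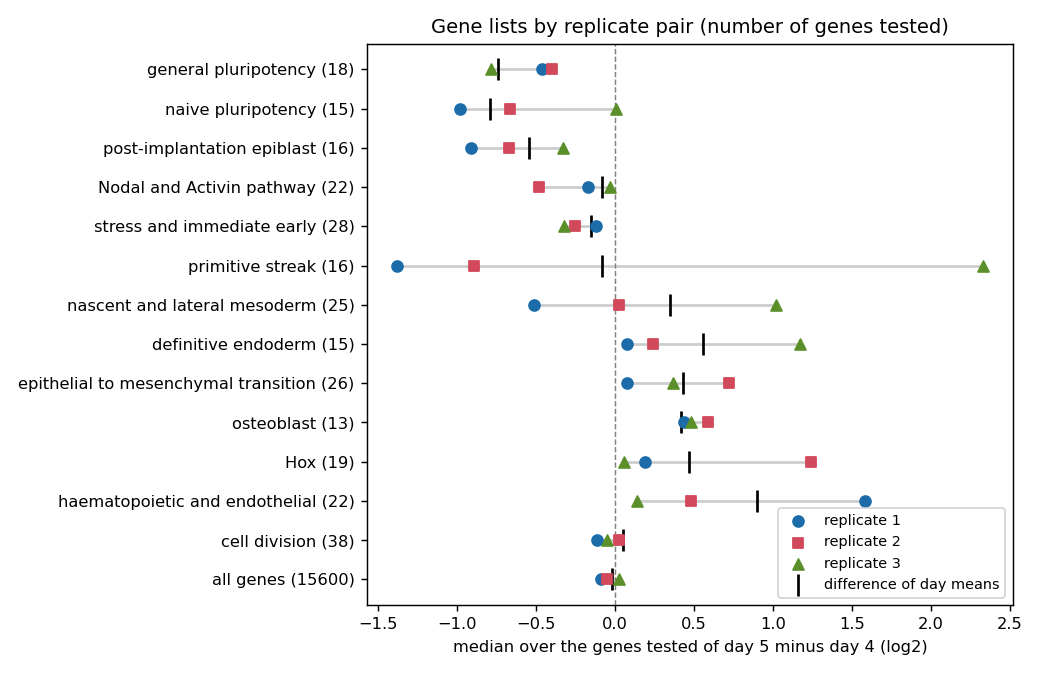
Median day 5 minus day 4 difference over the tested genes of 13 lists and of all genes, with a coloured mark for each replicate pair and a black bar for the difference of day means; numbers of genes stand in brackets. The streak list spans -1.38 to 2.33 between pairs, the blood and endothelial list 0.14 to 1.58, and all genes -0.09 to 0.03.

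Blood and endothelial genes divided the replicates in another way. Of 22 tested, 7 were higher and 0 lower in all 3 pairs, the median was 0.90, and the median pair differences were 1.58, 0.48 and 0.14. The embryonic alpha-like globin gene Hba-x read 7.29, 7.37 and 7.48 on day 4 and 14.47, 12.37 and 7.29 on day 5 (4.00, adjusted p = 0.491). Hbb-y, the other embryonic beta-like globin, read 10.60, 6.20 and 5.85 and then 15.06, 13.12 and 7.05 (4.19, 0.535, with the 6.20 and 5.85 under the floor). Both were thus abundant on day 5 in replicates 1 and 2 and near their day 4 level in replicate 3. Klf1, the erythroid activator of globin genes, read 8.29, 6.62 and 8.58 and then 10.77, 10.45 and 7.77. Other regulators of blood formation differed less, with 1.37 for Lmo2 (0.56), 1.03 for Gata1, 0.73 for Tal1, -0.02 for Etv2 and 0.04 for Runx1. Summed over the list, linear signal was 11000 to 23200 on day 4 and 16800 to 154000 on day 5.

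On 430A replicate 3 also scored lowest of its day on the first principal component, which was not so on 430B. On that component of the 21 arrays of 430A (35.0% of the variance), which runs from early to late days, scores were -67.4, -71.6 and -75.0 on day 4 and -59.7, -64.4 and -73.9 on day 5. Within a day the arrays of 430A correlated at 0.853 to 0.889 on day 4 and at 0.873 to 0.92 on day 5. The number of calls depended on which array was in the fit. Without day 5 replicate 3 the unpaired fit called 55 on 430A, with 23 on 430B, and without day 4 replicate 1 the counts were 142 and 67. Without day 5 replicate 3 Hbb-bh1 (7.43, adjusted p = 0.00661), Nodal (-2.59, 0.00796) and Mt1 (-2.40, 0.00996) passed the unpaired test, all with the same direction as in the full fit. The median of the streak list changed sign with the array left out, from -0.65 without day 4 replicate 3 and -0.36 without day 5 replicate 3 to 0.34 without day 5 replicate 1 and 0.38 without day 4 replicate 2. The median of the mesoderm list turned to -0.19 without day 4 replicate 3.

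**Figure D4:**
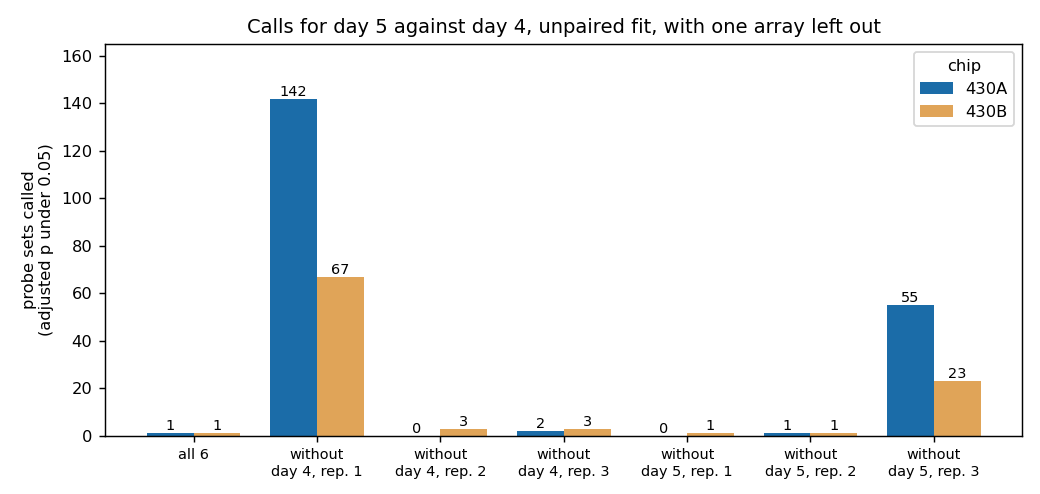
Number of probe sets with an adjusted p under 0.05 for day 5 against day 4 in the unpaired fit with all 6 arrays and with 1 of them left out, on 430A and 430B. Bars are highest without day 4 replicate 1 (142 and 67) and without day 5 replicate 3 (55 and 23), and between 0 and 3 in the other cases.

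Of the nascent and lateral mesoderm genes 25 were tested, 5 were higher and 2 lower in all 3 pairs, the median was 0.35, and Pdgfra was the 1 blocked call. Gata6, a factor of endoderm and cardiac mesoderm, read 11.51, 10.73 and 8.91 and then 11.32, 12.18 and 11.15 (1.17, adjusted p = 0.534). Aplnr, the apelin receptor of migrating mesoderm, had 14.05, 13.46 and 7.09 and then 13.90, 13.74 and 13.62 (2.22, 0.578), so that only replicate 3 differed, and without its day 4 array the change was 0.00. Kdr, the receptor of haemangioblasts, read 10.19 in day 4 replicate 3 and between 12.31 and 13.26 on the other 5 arrays. These low day 4 values of replicate 3 recurred in the list. Msgn1, a factor of presomitic mesoderm, was lower, with 9.0, 10.16 and 8.90 against 7.75, 6.94 and 8.79 (-1.53, 0.534).

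Among genes of the epithelial to mesenchymal transition 26 were tested, 9 were higher and 2 lower in all 3 pairs, and the median was 0.43. Cdh11, the cadherin of mesenchyme and osteoblasts, read 10.40, 10.12 and 7.32 and then 11.19, 10.88 and 10.58 (1.60, adjusted p = 0.534). Twist2, a mesenchymal helix-loop-helix factor, differed by 1.06 and Vim, the mesenchymal filament protein, by 0.69. The tight junction gene Cldn3 was lower, with 10.89, 10.79 and 10.80 against 9.35, 9.90 and 10.27, days that did not overlap (-0.99, 0.442). Epithelial keratins did not follow it, as Krt8 differed by 0.69 and Krt18 by 0.56.

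Of 13 osteoblast genes tested, 6 were higher and 1 lower in all 3 pairs, the median was 0.42, and Col1a1 was the 1 blocked call. Sparc, which binds collagen and mineral, read 12.63, 12.92 and 11.44 and then 13.32, 13.32 and 11.61 (0.42, SE 0.41, adjusted p = 0.805). Bmp2, a bone-inducing ligand, read 9.35, 8.38 and 2.58, the last of them under the floor, and then 10.88, 9.31 and 8.35 (0.534). Alpl, the alkaline phosphatase of osteoblasts that pluripotent cells also make, was lower in every pair (-1.05, 0.613), and the osteoblast factor gene Sp7 differed by -0.47. The fibroblast list, which shares Col1a1 and Col1a2 with it, was split, with 5 higher and 4 lower of 14. Cyp24a1, the hydroxylase that vitamin D induces, read 7.36, 8.19 and 7.69 and then 7.94, 8.40 and 8.67 (0.59, SE 0.50, 0.761), and of 8 vitamin D response genes 1 was higher and 0 lower in all 3 pairs.

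Several other lists were described by count. Of 28 stress and immediate early genes 1 was higher and 11 lower in all 3 pairs (median -0.15), with Mt1 and Mt2 the blocked calls and the heat shock gene Hspa1a (-0.94, adjusted p = 0.535) next after Hspb1. Of 19 Hox genes 7 were higher and 2 lower (median 0.47), among them the posterior gene Hoxd9 with 8.94, 8.85 and 8.02 against 10.88, 10.67 and 8.54 (1.43, 0.544). Of 15 definitive endoderm genes 6 were higher and 1 lower (median 0.56), and Hhex, a factor of anterior endoderm, had days that did not overlap (0.88, 0.491). Primitive and visceral endoderm gave 7 higher and 2 lower of 30 (median 0.28), in which the plasma carrier gene Ttr read 15.75, 13.92 and 8.45 on day 5 against 11.71, 13.08 and 8.95. The BMP list gave 4 higher and 2 lower of 24, with Id2, a target of BMP, at 1.91 (0.43), and the Wnt list 7 and 5 of 31. Of 38 cell division genes 3 were higher and 4 lower (median 0.05), and of 13 macrophage genes 0 and 1. The same counts were 2 and 5 of 20 for the FGF pathway, 2 and 6 of 22 for chromatin and DNA methylation, 1 and 2 of 22 for hypoxia and glycolysis, 0 and 2 of 15 for cholesterol synthesis, 2 and 0 of 11 for retinoic acid, 4 and 0 of 16 for cardiac progenitors, 4 and 1 of 11 for trophoblast and 2 and 3 of 14 for neural ectoderm.

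Outside the lists, the largest contrasts relative to their error among brighter probe sets with separate days did not pass the unpaired test. On the higher side these were Zfyve27, Efhd2, Txndc15, Klhl2, Tmcc1 and Zfp383 on 430B and Zc3h14 and Atp7a, a copper exporter, on 430A, beside Pdgfra and Reln (log2 changes 0.90 to 2.02, adjusted p = 0.335 to 0.412). Efhd2, a calcium-binding actin regulator, read 9.07, 9.63 and 9.04 and then 10.71, 11.84 and 11.23. On the lower side they were Tmem238, Slc1a3 and Rab11fip1 on 430B and Hsd17b11, Glud1 and Gstm1 on 430A, beside Mt1, Crip1, Nodal and Cldn3 (-0.72 to -2.45, 0.119 to 0.468). Tmem238, a membrane protein, read 12.63, 12.74 and 12.52 against 11.26, 11.56 and 11.69 (-1.12, SE 0.21, 0.173). The probe sets of Slc1a3, Txndc15 and Atp7a did not all share a direction. Among the list genes named above, the same held for Utf1, Esrrb, Sparc and Id2. By the blocked ranking Eloc, a subunit of ubiquitin ligases, joined the higher side (1.07, blocked adjusted p = 0.0551). Its second probe set did not share that direction.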

How the data were processed

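The authors deposited MAS5 signal, an intensity per probe set, per the submitters' processing notes (no version); it carries no log, and its mean, trimmed by 2%, was 1501 (430A) or 1500 (430B). The file headers of the arrays gave chip, replicate name and scan batch. Arrays carry no read depth, and their number limits the precision.

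The chips were analysed separately with limma 3.58.1 in R 4.3.3, on log2 signal without an offset, with day as a factor over 21 arrays (14 residual degrees of freedom), eBayes with a trend, two-sided, Benjamini-Hochberg per chip, threshold 0.05. A probe set was tested if 3 or more of the 21 arrays had it above their own 40th percentile, 16705 of 22690 on 430A and 18260 of 22575 on 430B. Symbols came from the platform annotation, updated by Entrez identifier through RefSeq for GRCm38.p6 (20364 and 14499 probe sets matched). On 430A 20393 probe sets had 1 symbol, 691 several and 1606 none, and on 430B 14674, 245 and 7656.

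Replicate numbers come from the titles, and for days 4 and 5 the array headers name the same replicates. On days 8 and 16 the headers give the number 4 to the arrays titled replicate 3. Deviations from the day mean correlated at 0.163, 0.161 and 0.21 between same-numbered arrays of days 4 and 5 on 430A, against -0.197 to 0.0281 between others, and at 0.0734, 0.0359 and 0.114 on 430B. Every pair above 0.1 was required. Deviations within a day sum to 0, so the gap to other-numbered arrays is partly built in. In log2 signal itself on 430A, day 4 replicate 1 correlated at 0.91 with day 5 replicate 1 and at 0.921 with day 5 replicate 2. Replicates 2 and 3 of day 4 correlated best with their own number. In the blocked fit only the arrays of days 4 and 5 carry replicate terms, and arrays of other days enter by day alone. That fit has 12 residual degrees of freedom, and its spread is pooled over all days, most of them unpaired.

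Where a gene had several probe sets, the brightest on 430A over the 6 arrays was taken for lists, or on 430B where 430A had none. The named genes were, per direction, up to 15 past the threshold (filled to 10 by p) with separate days and a mean above the chip's median, 5 by the blocked fit, up to 4 members a list by p, and core markers; genes beyond these were chosen after their values were seen. The comparison and the 27 lists (525 genes) were chosen with earlier results of these data known. Alternatives were the arrays fitted, block, filter, offset, scaling, trend, array weights, Gapdh ratio, scan batch and left-out samples.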

Additional observations from a re-analysis of the deposited data

How the results depend on the processing

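Without the block, the count of 1 on 430A became 0 with the 6 arrays alone, with the filter on those 6 arrays and with 64 added, and 2 with no filter. Under the filter on the 6 arrays Ptpre itself was not tested. On 430B the count became 0 with the 6 arrays alone. Quantile normalization, median centring, no trend, array weights, the Gapdh ratio and the scan batch left 1 on each chip. On 430A the arrays of days 4 and 5 were all scanned in 1 batch. The batch term there could not alter their log2 changes and is no check on that call. Leaving out 1 sample gave 0 to 142 calls on 430A and 1 to 67 on 430B. With the replicate block within all arrays there were 38 on 430A and 4 on 430B, and with it in the 6-array fit 1 on each, Hbb-bh1 on 430A and a lower Utf1 probe set on 430B, with Ptpre and Itgb3 lost. The 38 became 21 with 64 added, 25 with no filter, 21 with the filter on the 6 arrays, 20 without a trend, and 84, 0 and 103 without replicate 1, 2 or 3 of both days. It became 26 after quantile normalization and 41 after median centring, of which 25 and 35 were among the 38. With the filter on the 6 arrays only 28 of the 38 were still tested. These settings of the blocked count were chosen after seeing the data. The lowest same-numbered correlation on 430A was 0.094 with no filter, under the 0.1 required. Of genes one way in all 3 pairs 43.6% were higher, and 52.7% with median centring. Leaving out 1 sample turned the direction of some log2 changes that had not passed, with ranges of -1.57 to 0.02 for Eomes, -1.73 to 0.53 for Mixl1, -1.63 to 0.16 for Zfp42, -0.03 to 0.99 for Sparc, -0.22 to 1.36 for Krt8, -0.04 to 1.33 for Plac1, 0.00 to 3.48 for Aplnr, -1.23 to 0.18 for Cyp26b1 and -0.18 to 0.95 for Fcer1g. Pgk1 turned to 0.05 after quantile normalization. The cause was not tested.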
